A study of Mus musculus with 12 samples.

Results

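Glucose enters the heart through transporters, is phosphorylated by hexokinases and passes phosphofructokinase, the committed step of glycolysis, and 10 genes of this route were followed here through ischemic preconditioning (IP). They were Pfkfb1, Pfkfb2, Pfkfb3 and Pfkfb4, the hexokinases Hk1 and Hk2, the transporters Slc2a1 and Slc2a4, the muscle phosphofructokinase Pfkm and the lactate dehydrogenase subunit Ldha. The 10 genes, of 14044 tested, were chosen by symbol, and 20 of 45037 probe sets carried 1 of these symbols alone. Of these 20, 19 lay above the filter on low signal. The exception was a Pfkfb3 probe set (1419882_at) with a mean signal of 28.1, and 1 further probe set, which names Hk1 together with other genes, was left out.

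The tissue was the area at risk of the left ventricle of male mice aged 12 weeks on a BL6/C57 background, snap frozen, and its total RNA was hybridised to 12 Affymetrix arrays. Wild-type mice and mice lacking A2BAR (A2BAR-/-, the adenosine A2B receptor encoded by Adora2b, called the knockout) were studied as controls and after IP, with 3 arrays in each of the 4 groups. IP was 4 cycles of 5 min of ischemia and 5 min of reperfusion, after which the heart was reperfused for 2 h. The labels give the controls as untreated in one place and as sham operated in another, and the wild-type mice as bought and as littermates, so an effect of surgery or of breeding cannot be told apart from IP or genotype here. The knockout mice were bred in house, and their allele is not described further in the sources used here. Whether the 3 arrays of a group stand for 3 animals is not stated in the labels, and p-values then reflect no more than the spread of these samples, which may be technical.

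PFKFB enzymes make and break down fructose 2,6-bisphosphate, the most potent known activator of phosphofructokinase. Each carries a kinase and a phosphatase domain, and the isoforms differ in the balance of the activities. PFKFB2 is known as the heart isoform and is activated by phosphorylation downstream of insulin and adrenaline, whereas PFKFB3 has a high kinase activity and is induced by hypoxia and inflammatory signals. GLUT1 (Slc2a1) carries basal glucose uptake, GLUT4 (Slc2a4) is brought to the muscle cell surface by insulin, hexokinase 2 is the main hexokinase of the adult heart, and lactate dehydrogenase A regenerates NAD from pyruvate.

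Signals below are MAS5 intensities on a linear scale, and the number of arrays limits their precision. A signal depends on the probes as well as on the RNA, so levels are compared between groups and not between genes. Changes are differences of group means of log2(signal + 16), given with the standard error (SE) of limma's moderated test. A gene passed when its p, adjusted by the Benjamini-Hochberg method over all 14044 genes, was below 0.05. In these bulk samples fewer cells of a type and less RNA per cell cannot be told apart.

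Median signals per array ran from 66.5 to 77, and rank correlations within groups ran from 0.908 to 0.918. The wild-type IP arrays had the highest total signals, 37287858 to 37455385, against 35488398 to 36540277 on all other arrays. Their medians were 77, 75.2 and 69.8. The part of this difference in small wild-type changes was not tested. The third wild-type control array stood apart. It has 1425 consecutive probe sets at 0, whose median elsewhere was 639 and which were treated as missing; the main probe set of Pfkfb3 and that of Pfkm are among them. Its summed signal of 11 neutrophil markers was also 9557, against 1759 and 1371 on the other wild-type control arrays. Most of the 9557 came from S100a9, at 4814 against 324 and 295, and S100a8, at 2959 against 234 and 334. Without this array the wild-type IP changes were −1.24 for Pfkfb2 and 0.49 for Slc2a1 (limma adjusted p = 0.0122 and 0.0297), while Pfkfb3 and Pfkm have no value on it. Adora2b (1450214_at) had signals of 42.1, 71.1 and 72 in wild-type controls and 18.6, 52 and 62.6 in knockout controls, which overlap. After IP they were 207, 165 and 156 in wild type and 52.3, 61.5 and 47.7 in the knockout, which do not overlap. The sources used here do not place its probes relative to the deleted part. The heart muscle genes Myh6 and Tnnt2 had signals of 54375 or more on every array.

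Promoter windows of 250 bases before the annotated start are shown for 4 of the genes, since Pfkfb3 and Slc2a1 are the members that rose in both genotypes, Pfkfb2 is the member that fell, and Ldha is a textbook target of hypoxia signalling that passed in no comparison. They are RefSeq sequences of build GRCm38.p6, written 5′ to 3′ on the strand of the gene. Capitals mark ACGTG and GCGTG, the letters of the known hypoxia response element core, on either strand, so the reverse complements CACGT and CACGC are in capitals too. The E-box letters CACGTG hold ACGTG on both strands.

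Pfkfb3, first start, chr2:11553930-11554179, minus strand: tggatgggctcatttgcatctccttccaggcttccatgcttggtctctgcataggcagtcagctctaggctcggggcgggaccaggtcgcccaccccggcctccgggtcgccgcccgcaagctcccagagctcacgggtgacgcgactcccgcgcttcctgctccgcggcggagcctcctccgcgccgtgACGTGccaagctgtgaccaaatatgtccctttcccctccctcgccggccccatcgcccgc
Pfkfb3, second start, chr2:11502091-11502340, minus strand: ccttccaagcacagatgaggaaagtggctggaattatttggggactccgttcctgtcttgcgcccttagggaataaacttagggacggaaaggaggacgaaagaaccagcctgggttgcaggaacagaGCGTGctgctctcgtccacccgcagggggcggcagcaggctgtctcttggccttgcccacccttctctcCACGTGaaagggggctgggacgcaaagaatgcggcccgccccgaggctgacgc
Pfkfb2, first start, chr1:130715822-130716071, minus strand: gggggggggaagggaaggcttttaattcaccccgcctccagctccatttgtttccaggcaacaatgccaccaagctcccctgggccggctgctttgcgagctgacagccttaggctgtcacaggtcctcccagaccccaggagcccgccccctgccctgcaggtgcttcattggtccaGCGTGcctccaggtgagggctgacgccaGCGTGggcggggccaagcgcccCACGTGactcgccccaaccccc
Slc2a1, chr4:119108495-119108744, plus strand: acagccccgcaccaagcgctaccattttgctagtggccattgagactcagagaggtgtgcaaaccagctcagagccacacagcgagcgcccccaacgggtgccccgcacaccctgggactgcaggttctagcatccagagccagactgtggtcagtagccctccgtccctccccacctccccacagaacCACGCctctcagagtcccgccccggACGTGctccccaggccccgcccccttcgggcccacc
Ldha, first start, chr7:46845554-46845803, plus strand: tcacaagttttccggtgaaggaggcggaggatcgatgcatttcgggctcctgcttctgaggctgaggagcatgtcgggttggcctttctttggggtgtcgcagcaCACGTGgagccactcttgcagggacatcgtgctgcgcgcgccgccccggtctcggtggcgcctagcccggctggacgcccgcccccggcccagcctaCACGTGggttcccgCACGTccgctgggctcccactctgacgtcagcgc

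The table holds 20 promoter windows for 9 of the 10 genes, some of which overlap, and none was used for Slc2a4. ACGTG or GCGTG was present in 15 of these 20 windows, and in 38.6% of all 32851 promoter windows of the same length. The pattern was present in genes that rose, fell and did not pass alike. The palindrome CACGTG, found in 6.02% of all windows, occurred once in the second Pfkfb3 window and once in the Pfkfb2 window shown. It also occurred once in the first Pfkm window, which is not shown. The Ldha window shown holds the palindrome 2 times, together with 1 TGACGTCA, a cAMP response element that 1.55% of all windows hold. The other Pfkfb2 and Ldha windows, not shown, do not hold the palindrome. These matches are a description of the letters only.

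In wild-type hearts, the first comparison asked which of the 10 genes changed after IP. Pfkfb3, Slc2a1 and Pfkm were higher, Pfkfb2 was lower, and 6 genes did not pass. Among all genes 16.6% passed, 6.54% higher and 10% lower. The median log2 change of the 10 genes was 0.06, and that of all genes was −0.05. In knockout hearts Pfkfb3 and Slc2a1 were higher, none of the 10 was lower and 8 did not pass, where 12.1% of all genes passed, 4.82% higher and 7.32% lower. Their median log2 change was −0.11, and that of all genes was −0.08. The arrays of IP and control did not overlap for 4 of the 10 genes in wild type and 3 in the knockout, against 33.5% and 32.2% of all genes. At an unadjusted p below 0.05 there were 4 and 6 of the 10, against 29.9% and 26.4% of all genes.

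**Figure D1:**
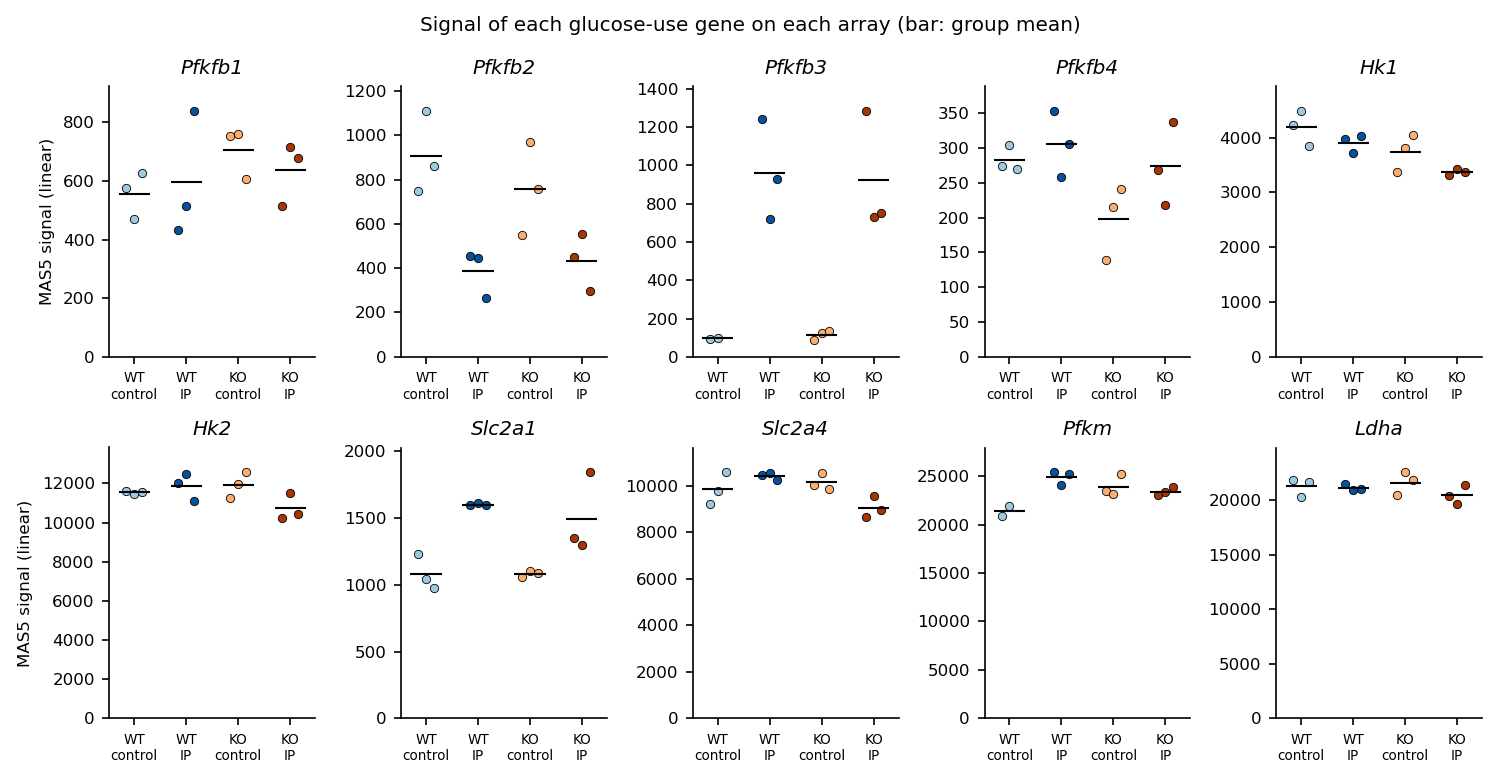
MAS5 signal (linear axis from 0) of each of the 10 genes on each array by group (WT, wild type; KO, knockout), with a bar at the group mean. Pfkfb3 is between 87 and 134 in the control groups and between 718 and 1286 after IP, Pfkfb2 is lower in both IP groups, and the points of Hk2, Slc2a4 and Ldha lie close together; the third wild-type control array is missing for Pfkfb3 and Pfkm.

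Of the 4 PFKFB isoforms, Pfkfb3 had the largest change in each genotype. Its main probe set (1416432_at, gene at chromosome 2, 11389288 to 11419920 in the authors' table, build not given) had signals of 94.7 and 96.8 in the wild-type controls with a value. In the wild-type IP hearts they were 1240, 718 and 927. In the knockout they were 87, 127 and 134 in controls and 1286, 732 and 749 after IP. Every IP array was higher than every control array in both genotypes. The log2 change was 3.10 ± 0.27 (SE, n = 3 against 2) in wild type, an 8.54-fold rise with a limma adjusted p of 5.11e-06. In the knockout it was 2.80 ± 0.24 (SE, n = 3 against 3), a 6.96-fold rise with a limma adjusted p of 5.1e-06. The rise passed under all 22 other settings in both genotypes, with a range from 1.79 to 4.03 in wild type and from 1.96 to 2.95 in the knockout.

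Pfkfb3 has 2 further, dimmer probe sets, and these were judged in a fit over all 45037 probe sets, of which 5.84% passed in wild type and 4.31% in the knockout. The probe set 1456676_a_at had signals of 52.9, 60.6 and 39.2 in wild-type controls and 77.6, 74.5 and 110 after IP. In the knockout its signals were 38.8, 43.8 and 82.7 in controls and 122, 142 and 136 after IP. IP arrays lay above control arrays in both genotypes, but the log2 changes of 0.62 ± 0.32 (limma adjusted p = 0.321) and 1.12 ± 0.32 (limma adjusted p = 0.0617) did not pass. The dimmest, 1419882_at, which lies below the filter, had changes of the opposite sign, −0.97 ± 0.47 in wild type and −0.75 ± 0.47 in the knockout (limma adjusted p = 0.298 and 0.497). Only the brightest of the 3 probe sets passed.

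Pfkfb2 moved the other way. Its brightest probe set (1429486_at, gene at chromosome 1, 132516728 to 132543360 in the authors' table) had signals of 748, 1111 and 859 in wild-type controls and 456, 444 and 265 after IP. All IP arrays were lower than all control arrays, and the log2 signal fell by 1.21 ± 0.26 (SE, n = 3 against 3), 2.31-fold, with a limma adjusted p of 0.00551. In the knockout the signals were 551, 968 and 758 in controls and 450, 556 and 295 after IP. There the highest IP array reached past the lowest control array, and the log2 change of −0.79 ± 0.26 had a limma adjusted p of 0.0574. That call turned on single arrays. The adjusted p was 0.0325 without knockout IP replicate 2, 0.0329 without knockout control replicate 1 and 0.0385 without wild-type IP replicate 3. With other single arrays left out it did not pass, the adjusted p rose as high as 0.245 and the weakest change was −0.55. Over all 22 other settings the highest adjusted p was 0.537 and the weakest change was −0.19.

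The 5 Pfkfb2 probe sets had negative changes in wild type, from −0.54 to −1.21, and only the brightest passed in the fit over all probe sets (adjusted p = 0.00944). The next, 1422090_a_at, had signals of 188, 124 and 189 in controls and 78.3, 70.2 and 82.7 after IP, with a log2 change of −0.96 ± 0.28 and a limma adjusted p of 0.0563. In the knockout the 5 changes were −0.79, −0.40, −0.15, 0.13 and 0.26, so they differed in sign and none passed, the smallest adjusted p being 0.0998.

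**Figure D2:**
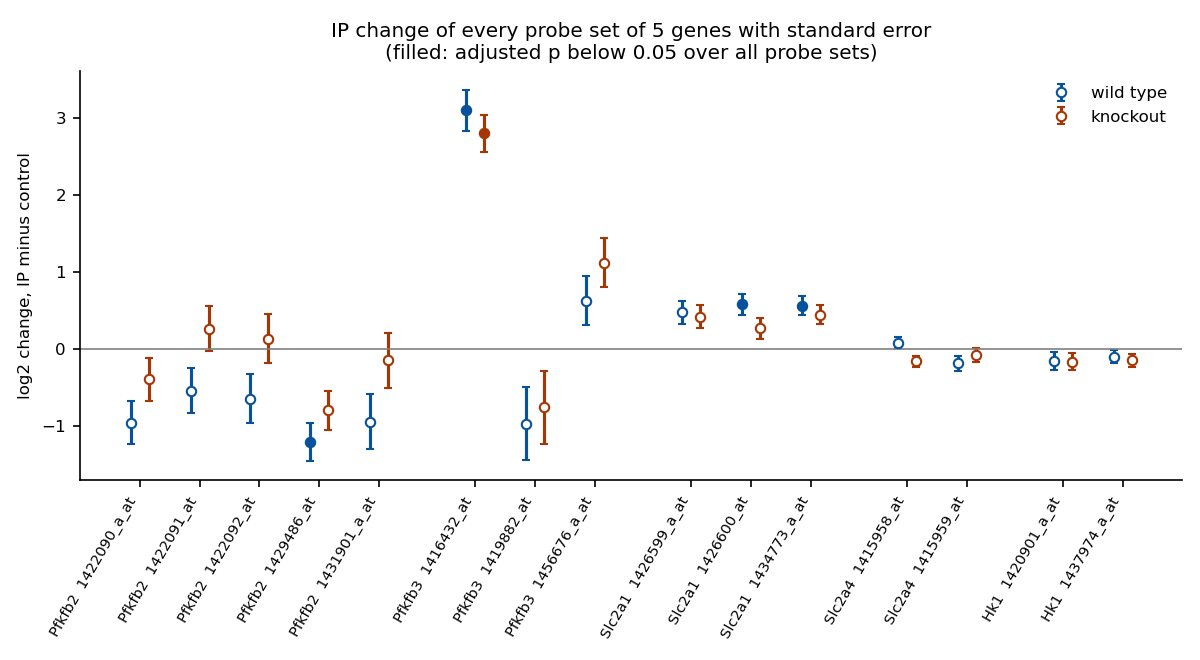
Log2 change from control to IP of every probe set of 5 genes, with the standard error, in wild type (blue) and knockout (brown); filled points passed over all probe sets. The 5 Pfkfb2 points of wild type lie below 0, the Pfkfb3 points span 3.10 to −0.97, and the Slc2a1 points lie above 0.

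On each array, the log2 signal of Pfkfb3 minus that of Pfkfb2 was between −3.32 and −2.79 in wild-type controls and between −2.79 and −2.36 in knockout controls. After IP it was between 0.67 and 1.75 in wild type and between 0.39 and 1.48 in the knockout. Since the probes differ between genes, the sign of these values says nothing of which transcript was more abundant, and the shift only restates the opposite changes of the 2 genes.

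The other PFKFB isoforms did not pass. Pfkfb1, known from liver and skeletal muscle, had signals of 577, 469 and 627 in wild-type controls and 432, 513 and 840 after IP, with a log2 change of 0.05 ± 0.21 (limma adjusted p = 0.915). In the knockout its change was −0.15 ± 0.21 (adjusted p = 0.702). Pfkfb4, first described in testis and induced by hypoxia in many cells, had signals of 274, 305 and 270 in wild-type controls and 354, 258 and 306 after IP. Its knockout signals were 139, 215 and 241 in controls and 269, 218 and 337 after IP, and these overlap. The log2 changes of Pfkfb4 were 0.10 ± 0.21 in wild type and 0.45 ± 0.21 in the knockout (limma adjusted p = 0.8 and 0.178).

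Among the transporters, Slc2a1 was higher after IP and Slc2a4 did not pass. Slc2a1 (1434773_a_at) had signals of 1229, 1044 and 976 in wild-type controls and 1595, 1610 and 1595 after IP, without overlap. Its log2 change was 0.56 ± 0.13 (SE, n = 3 against 3), a 1.48-fold rise with a limma adjusted p of 0.0076. In the knockout the signals were 1062, 1102 and 1085 in controls and 1347, 1297 and 1844 after IP, and all IP arrays were again the higher ones. There the log2 change was 0.44 ± 0.13, a 1.36-fold rise with a limma adjusted p of 0.0337. The third knockout IP array was the highest of the 12, and without it the change was 0.28 with an adjusted p of 0.157. Without knockout control replicate 1, 2 or 3 the change stayed at 0.43, 0.45 and 0.44, and the adjusted p was 0.0859, 0.0714 and 0.0819. The other Slc2a1 probe sets had changes of 0.58 and 0.47 in wild type (adjusted p = 0.0181 and 0.0696 over all probe sets) and of 0.27 and 0.42 in the knockout (adjusted p = 0.362 and 0.132).

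Slc2a4 (1415958_at) had signals of 9202, 9786 and 10580 in wild-type controls and 10440, 10556 and 10236 after IP, and its log2 change was 0.08 ± 0.07 (limma adjusted p = 0.447). This small change became negative with quantile normalization and with the mean of its probe sets. In the knockout the signals were 10018, 10534 and 9855 in controls and 8666, 9536 and 8972 after IP. They do not overlap, and the log2 change of −0.16 ± 0.07 had a limma adjusted p of 0.13. The second Slc2a4 probe set had a wild-type change of −0.19 ± 0.09 and a knockout change of −0.08 ± 0.09, so the 2 probe sets differ in sign in wild type.

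The hexokinases did not pass in either genotype. Hk2, bound to the outer mitochondrial membrane, had signals of 11608, 11446 and 11581 in wild-type controls and 12033, 12455 and 11093 after IP, which overlap. Its log2 change was 0.04 ± 0.07 in wild type (95% interval −0.11 to 0.18, limma adjusted p = 0.765), and this sign turned with quantile normalization. In the knockout it was −0.15 ± 0.07 (95% interval −0.30 to −0.01, limma adjusted p = 0.166), with signals of 11226, 11976 and 12573 in controls and 10209, 11532 and 10434 after IP. Hk1, the hexokinase found in most tissues, changed by −0.10 ± 0.08 in wild type and −0.15 ± 0.08 in the knockout (limma adjusted p = 0.469 and 0.296). Its signals were between 3316 and 4493 over the 12 arrays.

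Pfkm, the phosphofructokinase subunit that fructose 2,6-bisphosphate activates in muscle, had signals of 20901 and 21918 in wild-type controls and 25419, 24104 and 25235 after IP. These do not overlap, and the log2 change was 0.22 ± 0.06 (SE, n = 3 against 2), a 1.16-fold rise with a limma adjusted p of 0.0245. It was 0.11 with an adjusted p of 0.211 after quantile normalization. It also did not pass without wild-type IP replicate 1 or 3 or wild-type control replicate 1 (adjusted p = 0.08, 0.0646 and 0.136). Of 13 cardiomyocyte markers 7 were also higher in wild type, Tnnt2 by 0.22 and Myh6 by 0.19, none at 0; the summed signal of 12 of them was 504722 to 557260 in wild-type controls and 594030 to 607056 after IP. In the knockout none of the 13 passed (limma, 0 at an unadjusted p below 0.05), the sums were 513141 to 557547 and 514763 to 543181, and Pfkm changed by −0.03 ± 0.05 (limma adjusted p = 0.782). Among all genes 6.54% were higher after IP in wild type. For the genotype difference in the IP change, 0 of the 13 markers passed by limma. Of the 13, 9 had an unadjusted p below 0.05 in limma, against 7.87% of all genes. The part of these markers in the Pfkm result was not tested.

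Ldha had signals of 21897, 20308 and 21720 in wild-type controls and 21511, 20947 and 20995 after IP. Its log2 change was −0.01 ± 0.06 in wild type, with a 95% interval from −0.13 to 0.11, and −0.08 ± 0.06 in the knockout, from −0.20 to 0.04 (limma adjusted p = 0.933 and 0.432). Ldha thus lay within its replicate spread in both genotypes, and the intervals leave room for small changes.

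**Figure D3:**
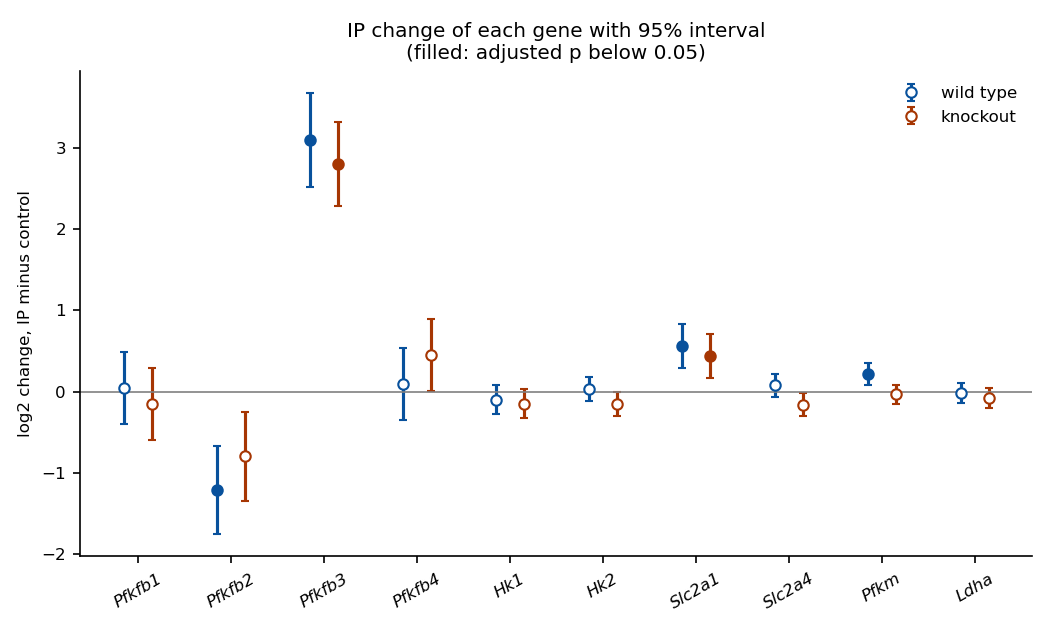
Log2 change from control to IP of each of the 10 genes with its 95% interval, wild type in blue and knockout in brown, filled where the adjusted p was below 0.05. Pfkfb3 stands highest at 3.10 and 2.80, Pfkfb2 lowest at −1.21 and −0.79, and Hk1, Hk2, Slc2a4, Pfkm and Ldha lie within 0.22 of 0.

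Markers of neutrophils, which use glycolysis as their main energy source, rose in the same hearts. Of 12 markers tested 11 were higher after IP in wild type and 10 in the knockout, with median log2 changes of 3.23 and 3.07. Among all genes 6.54% and 4.82% were higher. The summed signal of 11 markers was between 1371 and 9557 in wild-type controls, 12439 and 30555 after IP, 1729 and 2849 in knockout controls, and 11070 and 21866 after IP, and no marker was at 0. These sums add signals of different probes and are weighted toward bright markers such as S100a8 and S100a9. Within each IP group the array with the lowest marker sum, replicate 2, also had the lowest Pfkfb3 signal (718 and 732). The other arrays did not keep this order. In wild-type IP, replicate 3 had the highest sum (30555) with Pfkfb3 at 927, and replicate 1 had 28776 with Pfkfb3 at 1240. In knockout IP, replicate 3 had a sum of 20899 with Pfkfb3 at 749, and replicate 1 had 21866 with Pfkfb3 at 1286. On the replicate 2 arrays Slc2a1 was 1610 in wild-type IP, where the 3 arrays lay between 1595 and 1610, and 1297 in knockout IP, the lowest of its group. On the third wild-type control array, where the sum was 9557, Slc2a1 was 976, the lowest of its group. Of 12 endothelial markers 1 was higher and 4 lower in wild type and 1 higher and 3 lower in the knockout, against 16.6% and 12.1% of all genes called. Of 4 erythroid markers 1, Hba-a1, was higher in wild type (0.62, limma adjusted p = 0.0073) and none in the knockout (0 at an unadjusted p below 0.05 in limma). Their summed signal was 20743 to 35842 in wild-type controls and 36722 to 45250 after IP, without overlap, and 28288 to 32928 and 30698 to 33137 in the knockout. For the genotype difference in the IP change, 0 of these 4 passed by limma. Of the 4, 1 had an unadjusted p below 0.05 in limma, against 7.87% of all genes. With wild-type control replicate 3 left out, 11 of 12 neutrophil, 10 of 13 cardiomyocyte and 3 of 4 erythroid markers were higher in wild type. In that setting 2 of 11 monocyte and macrophage markers were higher. Of 12 endothelial markers 1 was higher and 4 were lower, and 0 of 8 fibroblast markers passed. Leaving out single arrays in turn, 1420 to 2351 of the 14044 genes passed in wild type, higher or lower. The part of these cells in the results was not tested.

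**Figure D4:**
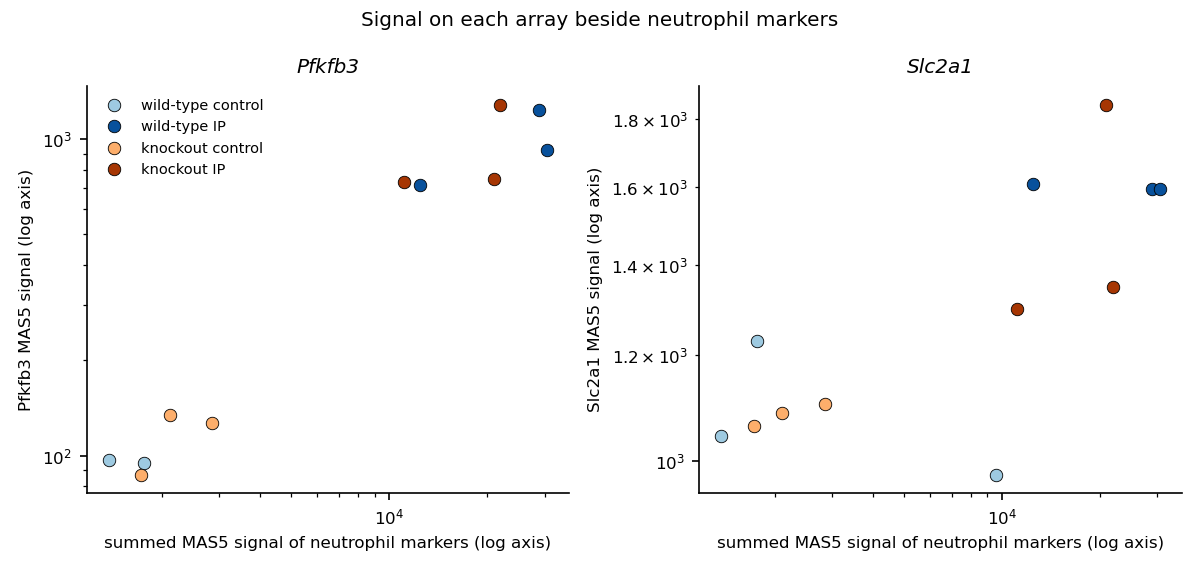
Signal of Pfkfb3 (left, 11 arrays) and Slc2a1 (right, 12 arrays) on each array against the summed signal of 11 neutrophil markers, both axes logarithmic, coloured by group. IP arrays lie to the upper right for Pfkfb3, and the wild-type control array with a sum of 9557 has the lowest Slc2a1 signal of its group at 976.

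The other genes of the pathway were taken from 6 lists, and the first held glycolytic enzymes beyond the 10 genes. Of 20 other glycolytic enzymes, 14 were tested, and limma called 0 of these in either genotype, with 2 at an unadjusted p below 0.05 in each, against 29.9% and 26.4% of all genes. With wild-type control replicate 3 left out, 1 of them, the aldolase Aldoa, passed in wild type (0.23, limma adjusted p = 0.0397). The median log2 change was 0.06 in wild type and −0.01 in the knockout. Glucose phosphate isomerase (Gpi1) changed by 0.22 ± 0.09 and the muscle phosphoglycerate mutase Pgam2 by −0.14 ± 0.06 in wild type (limma adjusted p = 0.113 and 0.149). In the knockout the liver and platelet phosphofructokinases Pfkl and Pfkp changed by −0.31 ± 0.10 and 0.25 ± 0.11 (limma adjusted p = 0.0633 and 0.165).

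Of 14 other sugar and lactate transporters, 9 were tested, with list medians of 0.31 and −0.06. In each genotype 1 of these was higher, against 6.54% of all genes in wild type and 4.82% in the knockout. It was Slc2a3, which encodes GLUT3, a high-affinity glucose transporter of neurons and white blood cells. Its signals were 147, 133 and 161 in wild-type controls and 936, 537 and 1027 after IP, and 121, 141 and 135 in knockout controls and 522, 331 and 640 after IP. The groups do not overlap, and the log2 changes were 2.33 ± 0.24 and 1.75 ± 0.24, rises of 5.03-fold and 3.36-fold with limma adjusted p of 1.94e-05 and 0.000255. Its lowest IP array was replicate 2 in each genotype, as for the neutrophil marker sum. The third wild-type control array, with its sum of 9557, had 161.

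Of 17 genes of glycogen turnover, 3 were higher in wild type, and in the knockout 1 was higher and 1 lower, with list medians of 0.02 and 0.05. Of all genes 16.6% passed in wild type and 12.1% in the knockout, so these shares are near the background. Phosphoglucomutase 2 (Pgm2) rose by 0.88 ± 0.17 in wild type and 0.95 ± 0.17 in the knockout (limma adjusted p = 0.00332 and 0.00213). The brain-type glycogen phosphorylase Pygb, also made in heart, rose by 0.46 ± 0.09 in wild type (adjusted p = 0.00281), with signals of 11898 to 13153 in controls and 15720 to 18543 after IP. Its knockout change was −0.15 ± 0.09 (adjusted p = 0.315), and the test of the difference between the genotypes gave −0.61 ± 0.13 with a limma adjusted p of 0.325. The liver phosphorylase Pygl rose by 0.88 ± 0.21 in wild type (limma adjusted p = 0.0105). In the knockout it did not pass, with a mean log2 signal of 8.344 in controls and 8.73 after IP. Ppp1r3d, which directs a phosphatase to glycogen, fell by 0.64 ± 0.16 in the knockout (limma adjusted p = 0.0171). In wild type it did not pass, with a mean log2 signal of 9.809 in controls and 9.605 after IP.

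Of 14 genes for pyruvate entry to mitochondria, 1 was higher and 2 lower in wild type and 1 was higher and 1 lower in the knockout, with list medians of 0.01 and −0.04, against 16.6% and 12.1% of all genes called. Pdk4, a kinase that switches off pyruvate dehydrogenase and so spares glucose, had signals of 21457 and 7780 in the wild-type controls with a value and 45472, 46732 and 37169 after IP. In the knockout it had 22721, 17271 and 11265 in controls and 35490, 38795 and 41627 after IP. The groups do not overlap, although the controls spread widely, and the log2 rises were 1.73 ± 0.32 and 1.23 ± 0.29 (limma adjusted p = 0.00279 and 0.0132). The pyruvate dehydrogenase components Pdhx and Dlat fell by 0.50 ± 0.13 and 0.28 ± 0.09 in wild type (limma adjusted p = 0.0171 and 0.0359), and neither passed when wild-type control replicate 3 was left out (adjusted p = 0.0517 and 0.0543). In the knockout neither passed. There Pdhx had mean log2 signals of 11.886 in controls and 11.817 after IP, and Dlat changed by −0.09 ± 0.09 (limma adjusted p = 0.559). Pdp1, the phosphatase that switches the complex on, fell by 0.54 ± 0.14 in the knockout (limma adjusted p = 0.0198). In wild type it did not pass, with a mean log2 signal of 10.071 in controls and 9.917 after IP.

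Of 13 genes of fructose bisphosphate breakdown and of the pentose and hexosamine branches, 1 was higher and 2 were lower in each genotype, with list medians of −0.15 and −0.17, against 6.54% higher and 10% lower among all genes in wild type and 4.82% and 7.32% in the knockout. Gfpt2, which sends fructose 6-phosphate to hexosamines, rose by 1.47 ± 0.13 in wild type and 1.12 ± 0.13 in the knockout (limma adjusted p = 3.8e-06 and 4.92e-05). Its signals were 488 to 664 in wild-type controls and 1529 to 1659 after IP. Tigar, a phosphatase that lowers fructose 2,6-bisphosphate and so opposes PFKFB kinases, fell by 0.55 ± 0.15 and 0.63 ± 0.15 (limma adjusted p = 0.0178 and 0.0109). The pentose phosphate enzyme Rpia fell by 0.64 ± 0.11 and 0.42 ± 0.11 (limma adjusted p = 0.00112 and 0.0198).

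Of 24 regulators of glucose uptake and glycolysis, 7 were higher and 2 lower in wild type and 4 were higher and 1 lower in the knockout, with list medians of 0.08 and 0.00485. Among all genes 6.54% were higher and 10% lower in wild type, and 4.82% and 7.32% in the knockout. Myc, a transcription factor that drives glycolytic genes in many cells, had signals of 141, 93.6 and 225 in wild-type controls and 1605, 1136 and 1520 after IP, a log2 rise of 3.14 ± 0.23 (limma adjusted p = 8.7e-07). Its knockout rise was 3.17 ± 0.23 (limma adjusted p = 6.53e-07). The insulin receptor substrate Irs2 rose by 2.29 ± 0.21 and 1.87 ± 0.21 (limma adjusted p = 4.91e-06 and 3.42e-05). Ppargc1a, a coactivator of mitochondrial genes, rose by 1.33 ± 0.12 and 0.90 ± 0.12 (limma adjusted p = 5.03e-06 and 0.000186). Hif1a, the oxygen-regulated subunit of hypoxia-inducible factor, rose by 0.50 ± 0.14 in wild type and 0.80 ± 0.14 in the knockout (limma adjusted p = 0.0222 and 0.00148). Leaving out wild-type control replicate 3 brought the wild-type change of Hif1a to 0.38, with an adjusted p of 0.0878.

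Egln3, a prolyl hydroxylase that marks HIF-1α for breakdown and is itself a HIF target, had signals of 3978, 3823 and 4661 in wild-type controls and 2076, 2685 and 1485 after IP. It fell by 1.03 ± 0.17 (limma adjusted p = 0.00108). In the knockout it had 3140, 2623 and 3521 in controls and 3467, 3361 and 2763 after IP, with a change of 0.05 ± 0.17 (limma adjusted p = 0.894). The difference between the genotypes was 1.08 ± 0.24 with an unadjusted p of 0.000518 in limma, and its adjusted p over all genes was 0.327. No gene of the 6 lists passed between the genotypes or in the difference of their IP changes.

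**Figure D5:**
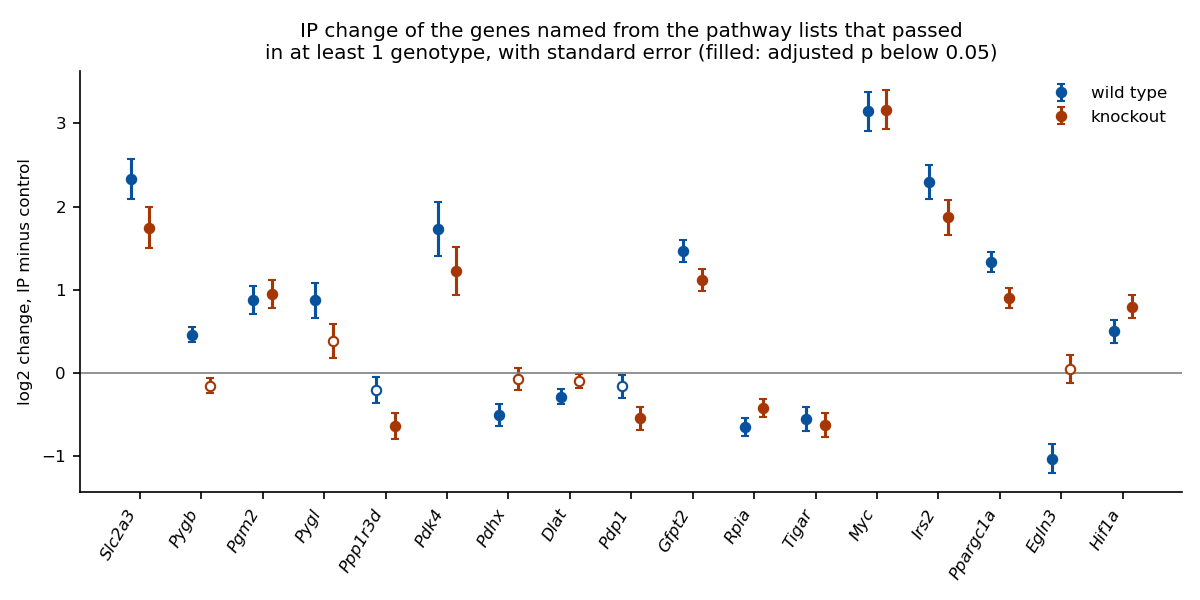
Log2 change from control to IP, with the standard error, of the genes named from the 6 pathway lists that passed in at least 1 genotype; wild type in blue, knockout in brown, filled where the adjusted p was below 0.05. Myc, Slc2a3 and Irs2 stand highest in both genotypes, and Egln3 is filled at −1.03 in wild type and open at 0.05 in the knockout.

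The knockout and wild-type controls were then compared to see whether loss of A2BAR altered the 10 genes at baseline. By limma 0 of the 10 passed, with 2 at an unadjusted p below 0.05, while 0.0356% of all genes passed and 6.59% had an unadjusted p below 0.05. Pfkfb4 was lower in all knockout controls (139, 215 and 241) than in the wild-type controls (274, 305 and 270), with a log2 difference of −0.51 ± 0.21 and a limma adjusted p of 0.718. Pfkm differed by 0.16 ± 0.06 (limma adjusted p = 0.683), again without overlap. Arrays of the compared groups did not overlap for these 2 of the 10 genes and for 12.2% of all genes.

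Between knockout and wild-type IP hearts, 0 of the 10 passed by limma, with 2 at an unadjusted p below 0.05, while 0.114% of all genes passed and 12.7% had an unadjusted p below 0.05. Slc2a4 had a log2 difference of −0.20 ± 0.07 (limma adjusted p = 0.218) and Hk1 one of −0.21 ± 0.08 (limma adjusted p = 0.311). The arrays of these genes and of Pfkm did not overlap, 3 of 10 against 19.6% of all genes. The Pfkfb3 difference was −0.07 ± 0.24, with a 95% interval from −0.59 to 0.44.

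Whether the IP change itself differed with genotype was tested directly, and 0 of the 10 genes and 0 of all 14044 passed by limma, a share of 0%. At an unadjusted p below 0.05 there were 2 of the 10 and 1105 of all, or 7.87%. For Pfkfb3 the difference was −0.30 ± 0.36, with a 95% interval from −1.07 to 0.47 (limma adjusted p = 0.871). It was 0.41 ± 0.36 for Pfkfb2, from −0.36 to 1.19, and −0.12 ± 0.18 for Slc2a1, from −0.50 to 0.26 (limma adjusted p = 0.817 and 0.901). The smallest unadjusted values were those of Pfkm (−0.25 ± 0.08, limma adjusted p = 0.495) and Slc2a4 (−0.24 ± 0.09, limma adjusted p = 0.558). The intervals of Pfkfb3 and Pfkfb2 reach past 1 log2 unit on one side, so a 2-fold difference in that direction lies within them at 3 arrays a group.

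In order of the group means, Pfkfb3 stood highest in wild-type IP, then knockout IP, knockout control and wild-type control hearts. Of these neighbours only the IP and control groups of the knockout did not overlap. Slc2a1 had the IP groups above the control groups, with knockout IP and wild-type control not overlapping. For Pfkm, knockout IP and wild-type control did not overlap. All neighbouring groups overlapped for the other 7 genes.

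The authors' deposited table, whose log2 summary is not described in the sources used here, gave decisions for the same probe sets. In the authors' deposited table Pfkfb2 was called lower in wild type for 4 of its 5 probe sets, with a log2 difference of −1.32 for the brightest, and that probe set was also called lower in the knockout, at −0.91. The authors' deposited table called Pfkfb3 (1416432_at) higher in wild type at 3.22 and in the knockout at 2.91. It also called 1456676_a_at higher in both, and higher in the knockout for the difference of IP changes, at 0.48, in the authors' deposited table. In the fit over all probe sets that difference was 0.49 ± 0.45 with a limma adjusted p of 0.891. Between the IP groups, the authors' deposited table called 1456676_a_at and the Pfkfb2 probe set 1422090_a_at higher in the knockout, at 0.54 and 0.93. In the fit over all probe sets these differences were 0.54 ± 0.32 and 0.49 ± 0.28 (limma adjusted p = 0.575 and 0.561). For Slc2a1, the authors' deposited table called all 3 probe sets higher in wild type and 1, at 0.52, in the knockout. Pfkm, which passed in wild type here, was not called there in the authors' deposited table, at a log2 difference of 0.11.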

How the data were processed

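Signals were taken from the deposited value table, in which the authors give 1 linear signal intensity per probe set and array, made with MAS5 (per the submitters' processing notes) and scaled to a target that the sources used here do not give. Per the file headers, the authors' deposited test table holds log2 differences, a decision score of −1, 0 or 1, an F score and a p-value. Runs of at least 100 zeros were set to missing, and 64 control probe sets were left out. Signals were transformed to log2(signal + 16), which understates the change of dim genes. Of 45037 probe sets, the 27022 whose mean exceeded the 40th percentile were kept, and the brightest one with a single symbol stood for each gene. Symbols came from the authors' test table (40137 probe sets with 1 symbol), updated by Entrez identifier in a RefSeq gene table (36287 matched). Of 14044 genes, 13192 had all 12 arrays and 852 lacked 1.

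Group means were fitted in limma 3.58.1 (R 4.3.3) over all arrays, with 8 residual degrees of freedom and an intensity trend of the variance; tests were two-sided. A second fit used all probe sets without the filter. The limma test of IP against control in wild type was also tried on simulated data. Replicate numbers did not pair the arrays (correlations of deviations from −0.0558 to 0.0761). The 10 genes and the gene lists were chosen with earlier results of these data known. The 10 genes are all named in both comparisons of IP with control. In the comparisons between genotypes only some of the 10 are named, with their values known. From each list, up to 4 genes past the threshold with the smallest p are named per IP comparison, or else the 2 with the smallest p. Further genes named beyond this rule were chosen after their values were seen. The counts of the gene lists without the third wild-type control array were added after seeing the data.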

Additional observations from a re-analysis of the deposited data

How the results depend on the processing

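Each of 50 results (10 genes in 5 comparisons) was recomputed under 22 other settings. Of these 1100 values, 1050 kept their direction and their side of the threshold, 15 lost the call, 4 gained it and 31 changed sign, none of them a called value. The rises of Pfkfb3 in both genotypes, the fall of Pfkfb2 in wild type and the rise of Slc2a1 in wild type passed under all 22. Pfkm in wild type did not pass with quantile normalization (0.11, adjusted p = 0.211), no filter (adjusted p = 0.0684) or no intensity trend (adjusted p = 0.139), and it was 3.68 with an adjusted p of 0.302 when the run of zeros was kept as values. Without single arrays it was between 0.18 and 0.25. In the knockout the number of members higher was 1 with no intensity trend, with the mean of all probe sets, with zeros kept and with the replicate block, because Slc2a1 no longer passed (adjusted p = 0.0675, 0.0509, 0.0628 and 0.051); without single arrays it was 1 to 2. The number lower was 1 with the replicate block, where Pfkfb2 passed with an adjusted p of 0.0216, and 0 to 1 without single arrays. The replicate numbers do not pair the arrays, so the block is only an alternative. The smallest adjusted p of a genotype difference in the IP change was 0.427 over all settings.

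Leaving out single arrays gave 1420 to 2351 genes past the threshold for IP in wild type (1420 without wild-type IP replicate 1), 948 to 1704 for IP in the knockout (948 without knockout IP replicate 3), 5 to 9 between the control groups and 5 to 39 between the IP groups. Between control groups the number was 8 with an offset of 64, and between IP groups it was 4 with no intensity trend, 26 when all probe sets were averaged and 6 with zeros kept. Changes near 0 turned sign. With quantile normalization, the values were −0.058 for Hk2 and −0.0047 for Slc2a4 in wild-type IP, −0.031 for Slc2a1 between controls, 0.040 for Ldha and 0.016 for Pfkm between IP groups, and 0.038 for Ldha in the genotype difference. With the mean of all probe sets they were −0.054 for Slc2a4 in wild-type IP, 0.23 for Pfkfb3 and 0.014 for Slc2a4 between IP groups, and 0.16 for Pfkfb3 in the genotype difference. Without single arrays the ranges crossing 0 were −0.044 to 0.010 for Ldha, −0.23 to 0.24 for Pfkfb1 and −0.0082 to 0.21 for Pfkfb4 in wild-type IP and −0.054 to 0.0076 for Pfkm in knockout IP. They were −0.013 to 0.060 for Ldha, −0.064 to 0.10 for Slc2a1 and −0.0062 to 0.094 for Slc2a4 between controls, and −0.059 to 0.41 for Pfkfb1, −0.10 to 0.39 for Pfkfb2 and −0.34 to 0.12 for Pfkfb3 between IP groups. In the genotype difference they were −0.12 to 0.011 for Hk1 and −0.39 to 0.073 for Pfkfb1. The causes of these shifts were not tested.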

Other observations

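The genes whose log2 signal followed each of 4 members most closely over the arrays are given as a description; the arrays fall into the same 4 groups for every gene, so genes that change with IP correlate. Pfkfb3 was followed by Clec4n, a lectin receptor of myeloid cells (Pearson r = 0.987 over 11 arrays), Litaf (0.984) and Cyth3 (0.983). Pfkfb2 was followed by Lmod3, an actin-binding protein of striated muscle (r = 0.96 over 12 arrays), Gask1b (0.958 over 11 arrays) and Smap1 (0.951). For Pfkfb4, which passed in no comparison, they were Acsl3 (r = 0.915), Ctdsp2 (0.894) and Itga3 (0.88). For Hk2 they were Ski (r = 0.898), Washc5 (0.891) and Nfx1 (0.878).

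Among the regulators, Irs1 fell by 0.86 ± 0.20 in wild-type IP hearts (limma adjusted p = 0.00823), while the other insulin receptor substrate, Irs2, rose. Its knockout change was −0.00012 ± 0.20 (limma adjusted p = 1.0), and the test of the difference between the genotypes gave 0.86 ± 0.28 (limma adjusted p = 0.495). Knockout minus wild type, Irs1 differed by −0.93 ± 0.20 between the control groups and by −0.07 ± 0.20 between the IP groups (limma adjusted p = 0.235 and 0.926). In wild type Mlxip, a glucose-sensing transcription factor, rose by 0.45 ± 0.11, the AMP-activated kinase subunit Prkab2 by 0.41 ± 0.11 and Epas1 by 0.17 ± 0.05 (limma adjusted p = 0.0143, 0.0243 and 0.0466). Their knockout changes were −0.00064 for Mlxip, 0.20 for Prkab2 and −0.07 for Epas1 (limma adjusted p = 0.998, 0.296 and 0.442). In the knockout Mef2d fell by 0.28 ± 0.08 (limma adjusted p = 0.0458), and its wild-type change was −0.0076 (limma adjusted p = 0.966). These genes were named after their values were seen.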
